A study of Mus musculus with 4 samples.

Results

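The genes described here are 8 tissue kallikreins of the epidermis (Klk5, Klk6, Klk7, Klk8, Klk10, Klk11, Klk13 and Klk14), their inhibitor Spink5 and the membrane protease St14, measured in primary mouse keratinocytes with and without Cre-mediated deletion of the glucose transporter gene Glut1 (Slc2a1). They were chosen by name, as array rows whose annotation gives that 1 gene symbol. All 10 were found, each with 1 row, among the 22180 named genes tested. Only Spink5 among them encodes an inhibitor, since St14 encodes matriptase, itself a serine protease.

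The Glut1-deficient keratinocytes came from 1-week-old C57BL/6J mice with floxed Glut1 alleles and a Cre transgene driven by the keratin 14 promoter, which works in basal epidermal cells, so other cell types in these cultures would keep the gene. Wild-type keratinocytes came from mice of the same strain and age with the same floxed alleles and no Cre, so the presence of Cre and the deletion cannot be told apart. Each genotype had 4 mice with 1 dish each, reseeded at equal cell number after 3 days and harvested 1 day later in serum-free medium with 0.05 mM calcium chloride, a low calcium level. Plates of a genotype were pooled in pairs, which gave 2 arrays of Glut1-deficient cells (1000000 cells lysed per sample) and 2 arrays of wild-type cells (1500000 cells), so genotype and lysed cell number cannot be told apart. The number of arrays limits the precision. The sample titles call the 2 arrays of each genotype biological replicates. Nothing in the sources shows whether the pools are independent of each other in culture or handling. Each p-value thus reflects only how far these pools differ, which may be technical.

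Kallikreins are secreted serine proteases made as inactive precursors. In the outer epidermis KLK5, KLK7 and KLK14 cut the corneodesmosomes that hold dead cornified cells together, which lets the skin shed. Spink5 encodes LEKTI, a secreted inhibitor of several kallikreins, whose loss in humans causes Netherton syndrome, with overactive proteases and a leaky barrier. In mice, matriptase can activate kallikrein precursors and prostasin.

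Values are log2 intensities after RMA, which sets all arrays to a common distribution, so every change is relative to the other genes on the array. Array medians lay between 4.07 and 4.11. The 3 brightest keratinocyte markers tested, Krt14, Perp and Krt17, stood at the 99.9, 99.8 and 99.7 percentiles of all genes by their mean. The dimmest, Krt15, stood at the 19.5 percentile. The brighter row of the deleted gene Slc2a1 averaged 11.01 ± 0.003 on the Glut1-deficient arrays and 11.09 ± 0.056 on the wild-type arrays (SD, n = 2 each; limma adjusted p = 0.675), and a dimmer row averaged 4.62 ± 0.251 and 5.14 ± 0.060 (SD, n = 2 each). Where these probes lie relative to the deleted exons is not given in the sources used here, so the rows do not check the genotype, which is named by its label.

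The inhibitor gene Spink5 and the kallikreins Klk10 and Klk11 were higher in Glut1-deficient keratinocytes, by 2.59-fold, 2.25-fold and 1.75-fold. The other 7 genes did not pass the test, among them Klk5, Klk7 and Klk14, the proteases of shedding. A gene is said to have risen or fallen where limma's adjusted p (Benjamini-Hochberg over all 22180 genes) was under 0.05. By this rule 3 of the 10 genes rose and 0 fell (6 of 10 at unadjusted p under 0.05 in limma, against 22.2% of all genes). Over all genes, 2.84% passed in either direction and 1.79% rose. The median log2 fold change of the 10 genes was 0.31, against -0.007 over all genes. In 8 of the 10 genes the arrays of the genotypes did not overlap, 6 of them higher and 2 lower in Glut1-deficient cells. Over all genes 53.2% had no overlap, 25.5% higher and 27.7% lower.

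**Figure D1:**
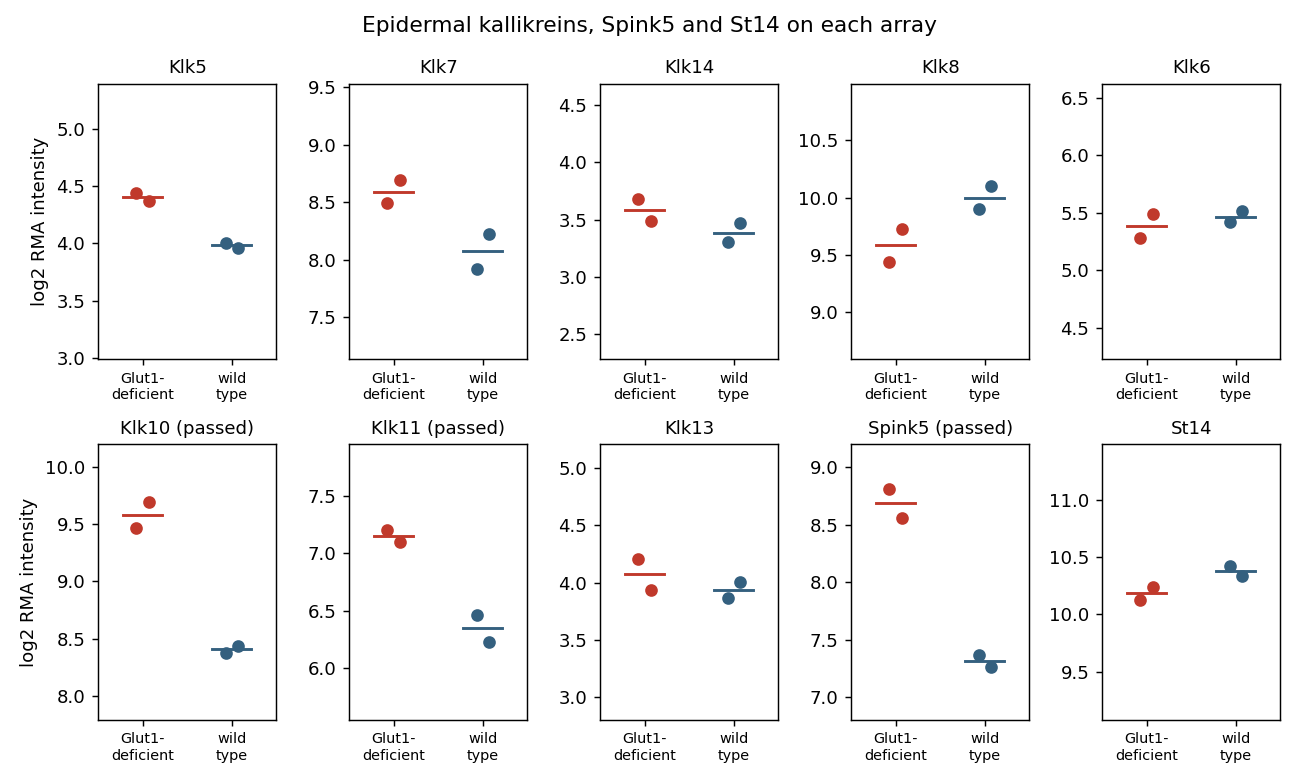
Log2 RMA intensity (vertical axis, the same span in every panel) of each gene on the 2 Glut1-deficient arrays (left) and the 2 wild-type arrays (right); points are arrays and bars are means. In the panels of Spink5, Klk10 and Klk11 both Glut1-deficient points sit well above both wild-type points, whereas those of Klk8 and St14 sit below.

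Spink5, the LEKTI gene, had log2 values of 8.82 and 8.56 on the Glut1-deficient arrays, against 7.37 and 7.26 on the wild-type arrays. The gap between genotypes was thus several times the gap within either pair. Its log2 fold change was 1.38 (SE 0.120, 95% interval 1.07 to 1.69; limma adjusted p = 0.0208), which ranked 109 among the rises of all genes. With 1 array left out the log2 fold change of Spink5 stayed between 1.25 and 1.50. By the distance between array profiles, the genes whose 4 values followed those of Spink5 most closely were Sel1l3, Atf6 and Ciart, at distances of 0.055, 0.068 and 0.083 on the log2 scale. Over only 4 arrays such likeness is a description.

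Among the proteases that LEKTI restrains, Klk7, a chymotrypsin-like protease also called stratum corneum chymotryptic enzyme, had log2 values of 8.49 and 8.69 on the Glut1-deficient arrays, against 7.92 and 8.23 on the wild-type arrays. The genotypes did not overlap, but the wild-type pair itself spread over 0.31. The log2 fold change of Klk7 was 0.52 (SE 0.143, 95% interval 0.15 to 0.89) and did not pass (limma adjusted p = 0.129).

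Klk5, a trypsin-like protease that can activate itself and Klk7, read 4.43 and 4.37 on the Glut1-deficient arrays, against 4.00 and 3.96 on the wild-type arrays. Replicates lay close together and the genotypes were apart. At 0.42 (95% interval 0.20 to 0.64; limma adjusted p = 0.0791) its log2 fold change did not pass. Klk14, another trypsin-like protease of the cornified layer, read 3.68 and 3.49 on the Glut1-deficient arrays, against 3.30 and 3.47 on the wild-type arrays. The difference between the genotype means was about the size of the gap within either pair, with a log2 fold change of 0.20 (95% interval -0.10 to 0.49; limma adjusted p = 0.395). Klk5, Klk13 and Klk14 were the 3 genes of the set whose mean was below the median gene of the arrays, where signal over background could not be judged because no detection calls were used.

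Inhibitor and protease signals were also set side by side within each array, as the log2 value of Spink5 minus that of the protease, relative to its wild-type mean. For Klk5 this difference was 1.05 and 0.86 on the Glut1-deficient arrays, against 0.03 and -0.03 on the wild-type arrays. For Klk7 it was 1.08 and 0.63 on the Glut1-deficient arrays, against 0.21 and -0.21 on the wild-type arrays, and for Klk14 1.21 and 1.15, against 0.14 and -0.14. Each of the 3 differences was higher on both Glut1-deficient arrays than on either wild-type array. The same held for Klk6, Klk8, Klk11, Klk13 and St14, with genotype means 1.46, 1.79, 0.57, 1.24 and 1.57 apart. The shift was thus not particular to the proteases of shedding. For Klk5, Klk13 and Klk14, dim rows whose signal over background could not be judged, the difference mainly restates the change of Spink5 and gives no ratio of the transcripts. The exact two-sided permutation test gave p = 0.333 for each of these pairs, the smallest p that 2 against 2 arrays allow. Against Klk10 the difference was 0.45 and -0.03 on the Glut1-deficient arrays, against 0.08 and -0.08 on the wild-type arrays, which overlap (exact p = 0.667).

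**Figure D2:**
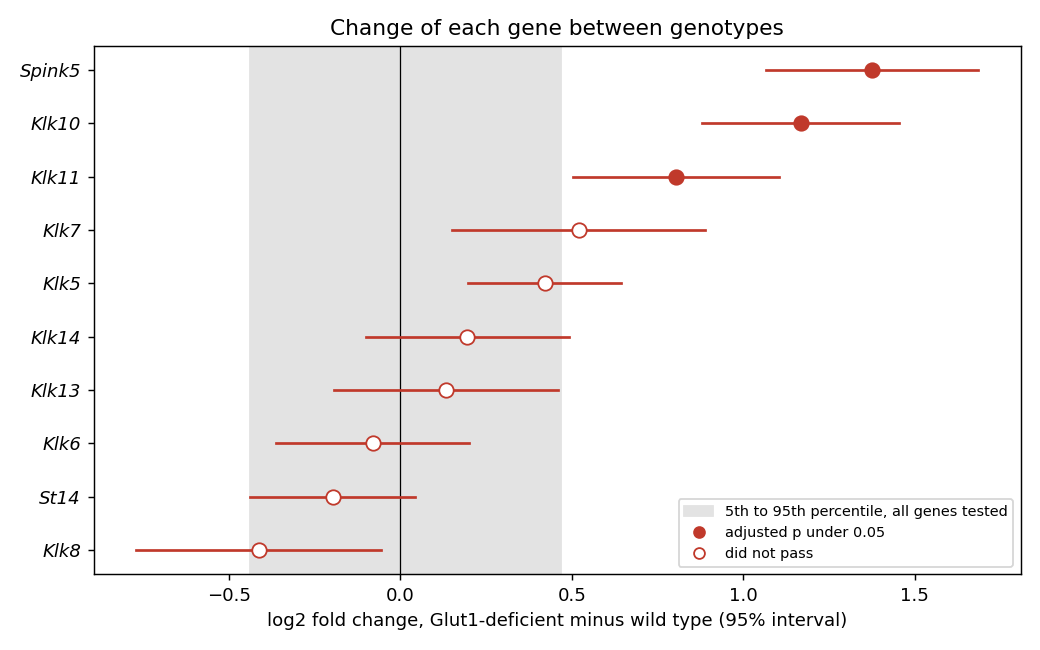
Log2 fold change (horizontal axis, Glut1-deficient minus wild type) of each gene with its 95% interval from limma; filled points passed at an adjusted p under 0.05, and the grey band spans the 5th to 95th percentile of all genes, -0.44 to 0.47. Spink5, Klk10 and Klk11 lie to the right of the band, at 1.38, 1.17 and 0.80.

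Klk10, a family member first known as a gene silenced in breast tumour cells, had log2 values of 9.46 and 9.69 on the Glut1-deficient arrays, against 8.38 and 8.44 on the wild-type arrays. The lowest Glut1-deficient array was about 1 log2 unit above the highest wild-type array. Klk10 rose by 1.17 on the log2 scale (SE 0.112, 95% interval 0.88 to 1.46; limma adjusted p = 0.0216), with values of 1.05 to 1.28 when 1 array was left out. Klk11, a trypsin-like protease also called hippostasin, read 7.21 and 7.10 on the Glut1-deficient arrays, against 6.46 and 6.23 on the wild-type arrays. It rose by 0.80 on the log2 scale (SE 0.116, 95% interval 0.50 to 1.10; limma adjusted p = 0.0438), with values of 0.69 to 0.92 when 1 array was left out.

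Klk8, or neuropsin, a trypsin-like protease of brain and skin, ran the other way. It read 9.44 and 9.73 on the Glut1-deficient arrays, against 9.90 and 10.10 on the wild-type arrays. The genotypes did not overlap, and the log2 fold change of -0.41 (95% interval -0.77 to -0.06) did not pass (limma adjusted p = 0.179). Klk6, or neurosin, read 5.28 and 5.49 on the Glut1-deficient arrays and 5.42 and 5.51 on the wild-type arrays, which overlap. Its log2 fold change of -0.08 had a 95% interval of -0.36 to 0.20. Klk13 read 4.20 and 3.94 on the Glut1-deficient arrays and 3.87 and 4.01 on the wild-type arrays, which also overlap, with a log2 fold change of 0.13 and a 95% interval of -0.19 to 0.46.

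St14, the matriptase gene, read 10.13 and 10.24 on the Glut1-deficient arrays, against 10.42 and 10.34 on the wild-type arrays. Both Glut1-deficient arrays were lower, by a small step. The log2 fold change was -0.20 (SE 0.094, 95% interval -0.44 to 0.04; limma adjusted p = 0.301) and did not pass.

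With any 1 array left out, 0 of the 10 genes and 0 of all genes passed in limma, with 5 of the 10 and 2948 to 4627 genes at unadjusted p under 0.05. With a variance prior that depends on intensity, 5 of the 10 genes passed, Klk7 (limma adjusted p = 0.0308) joining the rises and Klk8 (limma adjusted p = 0.0484) falling, against 12.0% of all genes.

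The tissue kallikrein genes of the mouse lie side by side on chromosome 7, 26 protein-coding genes from Klk14 to Klk1 in the RefSeq gene table, whereas Spink5 is on chromosome 18 and St14 on chromosome 9. Klk11 and Klk10, the 2 kallikreins that rose, are direct neighbours. Klk12, the gene on the far side of Klk11, had a log2 fold change of 0.12 (95% interval -0.10 to 0.35), and Klk9, on the other side of Klk10, one of 0.13 (95% interval -0.43 to 0.69). Klk8, the next gene after Klk9, was at -0.41 and Klk7 after it at 0.52. Of the 23 genes of the run that were tested, Klk10 and Klk11 passed, against 2.84% of all genes. Many of the 23 are dim. Of the 15 that are not in the set, 13 had means below the median gene of the arrays.

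**Figure D3:**
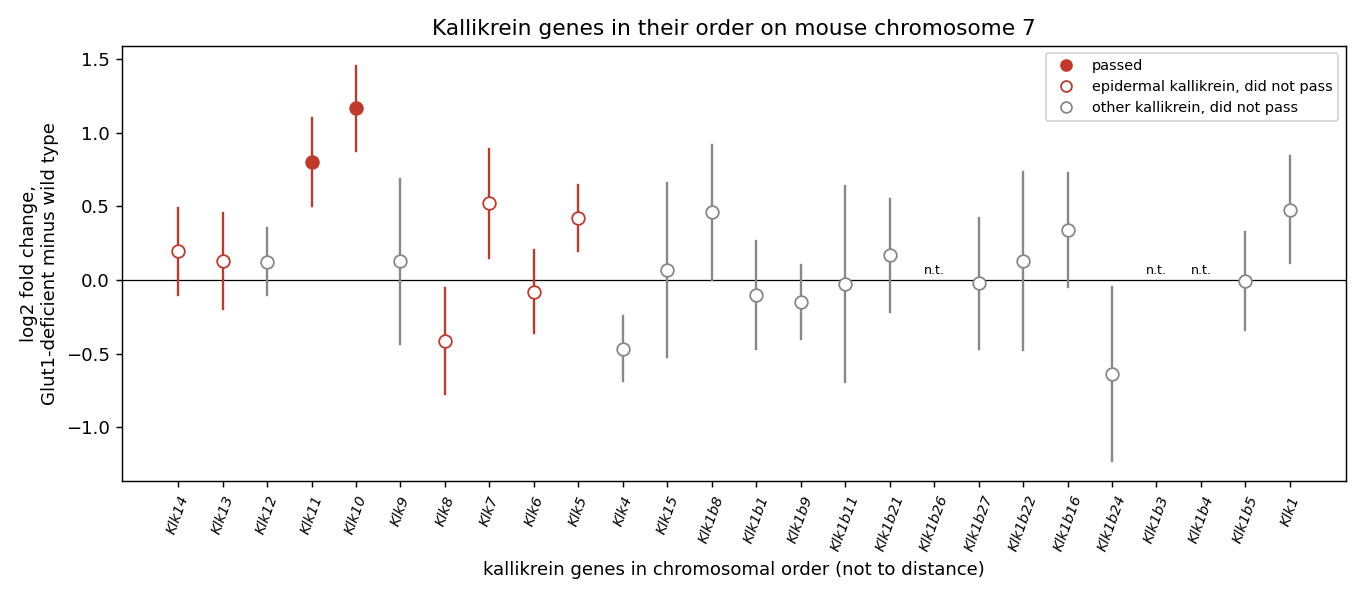
Log2 fold change (vertical axis, Glut1-deficient minus wild type, with the 95% interval) of the kallikrein genes in chromosomal order, evenly spaced; red marks the epidermal kallikreins, grey the others, filled points passed and n.t. means not tested. The neighbours Klk11 and Klk10 stand at 0.80 and 1.17 between Klk12 at 0.12 and Klk9 at 0.13.

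The stretch of 250 bases before the annotated start is shown for Klk10 and Klk11, the neighbours that rose, and for Klk8, the nearby gene with the most negative value of the set. The sequences are those of RefSeq on GRCm38.p6, plus strand, at chr7:43780804-43781053 for Klk10, chr7:43774367-43774616 for the first of 2 annotated starts of Klk11 and chr7:43797327-43797576 for Klk8. Capitals mark 3 kinds of match. The first is CACCC on either strand, the box read by Krüppel-like factors. The second is the GC box on either strand, spelled GGGCGG. The third is a TATA-like run on the gene's strand, spelled TTAAAA.
Klk10: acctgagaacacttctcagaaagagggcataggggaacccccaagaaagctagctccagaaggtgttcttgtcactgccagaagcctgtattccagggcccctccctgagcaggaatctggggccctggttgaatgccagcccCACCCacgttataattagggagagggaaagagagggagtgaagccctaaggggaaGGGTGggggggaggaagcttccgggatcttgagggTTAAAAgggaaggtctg
Klk11: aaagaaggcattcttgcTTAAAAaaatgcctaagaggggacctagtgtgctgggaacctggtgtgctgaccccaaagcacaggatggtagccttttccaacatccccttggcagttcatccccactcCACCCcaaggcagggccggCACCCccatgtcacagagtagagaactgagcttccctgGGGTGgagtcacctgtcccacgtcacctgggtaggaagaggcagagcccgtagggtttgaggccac
Klk8: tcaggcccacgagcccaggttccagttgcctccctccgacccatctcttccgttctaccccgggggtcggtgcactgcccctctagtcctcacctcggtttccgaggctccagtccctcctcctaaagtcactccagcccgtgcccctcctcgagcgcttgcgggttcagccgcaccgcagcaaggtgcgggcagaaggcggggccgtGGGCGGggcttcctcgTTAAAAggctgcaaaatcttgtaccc
The Klk10 window holds CACCC matches that begin 107 and 52 bases before the start and a TTAAAA run 17 bases before it. The Klk11 window holds 3 CACCC matches, 123, 104 and 66 bases before the start, and a TTAAAA run 233 bases before it. The Klk8 window holds none of CACCC, a GC box 42 bases before the start and a TTAAAA run 26 bases before it. Of all 32851 promoter windows of this length, 52.0% hold CACCC, 32.7% the GC box and 11.0% TTAAAA, so the first of these is common. Among the 8 kallikreins, which have 10 windows, CACCC was found for 7 genes, in 7 of the 10 windows. TTAAAA and the GC box were each found in 4 of the 10 windows. The window before the second annotated start of Klk11, not shown, held none of the letters searched. TGACTCA (AP-1), CACGTG and AACCGGTT (grainyhead-like factors), read on both strands, and TATAAA, on the gene's strand, were found in 0 of the 10 windows, against 4.46%, 6.02%, 0.116% and 7.59% of all windows. TGATGNAA, the C/EBP-ATF composite site, was found for Klk5 alone, against 3.45% of all windows. Some CACCC and GC box matches overlap each other, as in the Klk7 window. The letters searched were chosen after the windows had been read, and a match is no evidence of binding.

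Genes around the kallikreins went different ways. Of 10 tested genes whose products kallikreins or matriptase are known to cut, 2 rose, 0 fell and 8 did not pass, with a median log2 fold change of 0.17. Cdsn, which encodes corneodesmosin, the corneodesmosome protein that KLK5 and KLK7 cleave, read 9.39 and 8.98 on the Glut1-deficient arrays, against 6.56 and 6.88 on the wild-type arrays. That is a 5.52-fold rise, larger than that of any of the 10 genes of the set. Dsg1b, a desmoglein, rose 1.69-fold, with log2 values of 4.41 and 4.42 on the Glut1-deficient arrays, against 3.72 and 3.61. Its mean was below the median gene of the arrays, at the 40.8 percentile, where signal over background could not be judged. Its paralogue Dsg1a was at -0.59 and did not pass (limma adjusted p = 0.193). These desmoglein genes are close copies and may share probes. Smpd1, acid sphingomyelinase, was at 0.20 and did not pass.

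Of 10 other inhibitors of serine proteases, 0 rose, 1 fell and 9 did not pass, with a median log2 fold change of -0.03. Slpi, secretory leukocyte protease inhibitor, which inhibits elastase and other serine proteases and, in its human form, KLK7, read 6.96 and 7.55 on the Glut1-deficient arrays, against 8.61 and 8.58 on the wild-type arrays. It fell by 1.34 on the log2 scale (SE 0.206; limma adjusted p = 0.0488). Slpi and Spink5 thus moved in opposite directions on both Glut1-deficient arrays. Serpinb6c, a serpin, was at 0.86 and did not pass (limma adjusted p = 0.0849), Serping1, the complement C1 inhibitor, was at -0.17, and Wfdc12, a small secreted inhibitor of the whey acidic protein family, at 0.17.

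Of 17 other epidermal serine proteases and activators, 1 rose, 0 fell and 16 did not pass, with a median log2 fold change of -0.10. The gene that rose was Tmprss11b, a membrane-bound trypsin-like protease of squamous epithelium, at 8.61 and 8.90 on the Glut1-deficient arrays, against 7.14 and 7.05 on the wild-type arrays (3.16-fold; limma adjusted p = 0.0171). Its relative Tmprss11d, human airway trypsin-like protease, was at -0.80 (limma adjusted p = 0.0506). Plau, the urokinase gene, was at -1.27 (limma adjusted p = 0.0512), and Htra1, a secreted serine protease, at -0.45 (limma adjusted p = 0.0737). Prss8, or prostasin, named after its value was seen because matriptase activates it, read 8.07 and 8.16 on the Glut1-deficient arrays, against 7.51 and 7.70 on the wild-type arrays, and its log2 fold change of 0.50 did not pass (limma adjusted p = 0.0824). Cela2a was not tested. Tmprss11d and Plau lay just outside the threshold, and the counts of this list depended on the setting. With each array centred on its median 1 rose and 2 fell, while 3 rose and 4 fell with an intensity trend, among genes above the median level or at an adjusted p under 0.1.

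Of the 15 other tissue kallikreins tested, 0 passed in limma, with a median log2 fold change of 0.07. Of these, 4 had an unadjusted p under 0.05 in limma, near the 22.2% of all genes. Klk4, an enamel protease gene, was at -0.47 (limma adjusted p = 0.0654), Klk1 at 0.48, Klk1b24 at -0.64 and Klk1b8 at 0.46. The means of 13 of these 15 genes were below the median gene of the arrays. Klk1b genes are near-identical copies whose probes may not tell them apart, so their values are uncertain.

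Kallikreins and LEKTI are made mainly in the granular layer, so genes of that layer and of the cornified layer were read beside them. Of 24 tested, 5 rose, 1 fell and 18 did not pass, with a median log2 fold change of 0.34. Abca12, the lipid transporter of the lamellar granules in which kallikreins and LEKTI travel, rose 4.56-fold, and the lipoxygenase gene Aloxe3 rose 2.88-fold. Sbsn, suprabasin, rose 1.98-fold. Klf4, a Krüppel-like transcription factor, and Asprv1, a retroviral-like protease that processes filaggrin, also rose, and both are named after their values were seen. Others of the list did not pass, and these too are named after their values were seen. Rptn was at 0.78, Krt78 at 0.65, Alox12b at 0.61 and Sprr1b at 0.50. Krt1 was at 0.34, Lor at 0.24, Krtdap at 0.02, Krt10 at -0.04, Casp14 at -0.06, Krt2 at -0.13 and Tgm1 at -0.45. Of the 24 genes, 19 had positive and 5 negative log2 fold changes. The genotypes did not overlap in 17, 15 of them higher and 2 lower, against 25.5% and 27.7% of all genes. At unadjusted p under 0.05 in limma there were 15 of the 24, against 22.2% of all genes. Ivl, involucrin, fell by 1.58 on the log2 scale. The basal and general keratinocyte list had a median log2 fold change of -0.30, and Krt5 was not tested. In it 0 of 10 genes passed in limma (7 at unadjusted p under 0.05, against 22.2% of all genes).

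**Figure D4:**
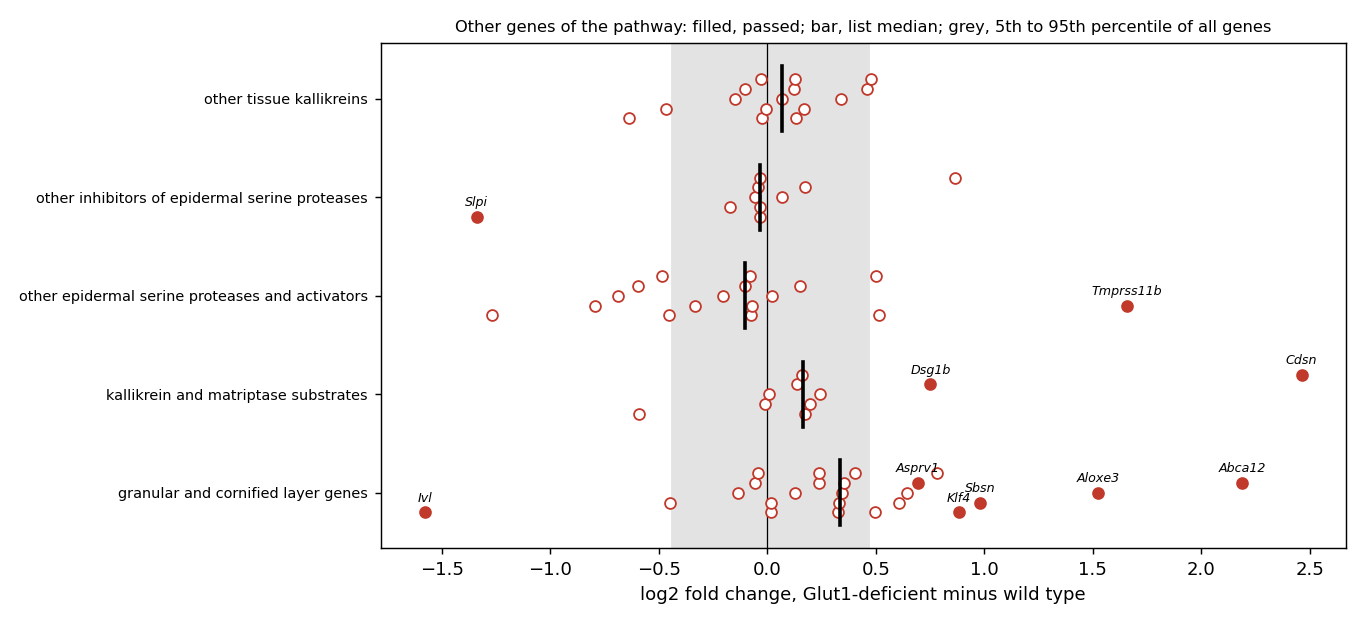
Log2 fold change (horizontal axis, Glut1-deficient minus wild type) of the tested genes of 5 lists; each point is a gene, filled where it passed, the black bar is the list median and the grey band spans the 5th to 95th percentile of all genes. Cdsn, Abca12 and Tmprss11b stand far to the right, and Ivl and Slpi far to the left.

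Markers of other cell types differed between the genotypes on the same arrays. All 9 fibroblast markers tested had positive log2 fold changes (median 1.08), and 0 passed in limma (8 at unadjusted p under 0.05, against 22.2% of all genes). Their summed linear intensity was 652 to 1228 on the Glut1-deficient arrays and 287 to 339 on the wild-type arrays. Pdgfra was at a log2 fold change of 2.15, Dcn at 2.01 and Col1a1 at 0.99. Of 8 melanocyte markers 4 rose and 0 fell (median 0.57), among them Dct (3.42-fold), Pmel (3.24-fold) and Tyrp1 (2.49-fold), with summed intensities of 963 to 1029 on the Glut1-deficient arrays and 378 to 471 on the wild-type arrays. The 4 that did not pass were Mitf at 0.29, Kit at 0.20, Tyr at 0.05 and Sox10 at -0.14 on the log2 scale. In such bulk samples, fewer cells of a type and less RNA per cell cannot be told apart.

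The fibroblast list stood 1.50 above the wild-type mean on Glut1-deficient array 1 and 0.78 on array 2 (median over genes). Spink5 stood 1.50 and 1.25 above its wild-type mean on the same arrays, Klk11 0.86 and 0.75, and Klk10 1.05 and 1.28. Spink5 and Klk11 were thus higher on array 1, which had the higher fibroblast signal, and Klk10 on array 2. The melanocyte list was nearly equal on both, at 0.62 and 0.61. The part of other cells in the rises of Spink5, Klk10, Klk11 and Cdsn was not tested.

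Of 5 endothelial markers Kdr alone rose (5.20-fold), with Pecam1 at -0.35 and Cdh5 at -0.10. Cldn5 was at 0.11 and Tek at 0.08, both with overlapping genotypes. The summed intensity of the 5 was 260 to 280 on the Glut1-deficient arrays and 115 to 117 on the wild-type arrays. The higher sum came from Kdr, with log2 values of 7.72 and 7.59 on the Glut1-deficient arrays, against 5.08 and 5.48. The 6 leukocyte markers tested, with Csf1r, Cd207 and Cd3e the brightest, had means below the median gene and a median log2 fold change of -0.06, with summed intensities of 77.8 to 79.1 on the Glut1-deficient arrays and 83.0 to 91.1 on the wild-type arrays. Gland markers, led by Krt7, Mgst1 and Aqp5, had a median of -0.12, with summed intensities of 492 to 533 on the Glut1-deficient arrays and 615 to 622 on the wild-type arrays. In the leukocyte and gland lists 0 genes passed in limma (2 of 6 and 3 of 8 at unadjusted p under 0.05, against 22.2% of all genes).

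**Figure D5:**
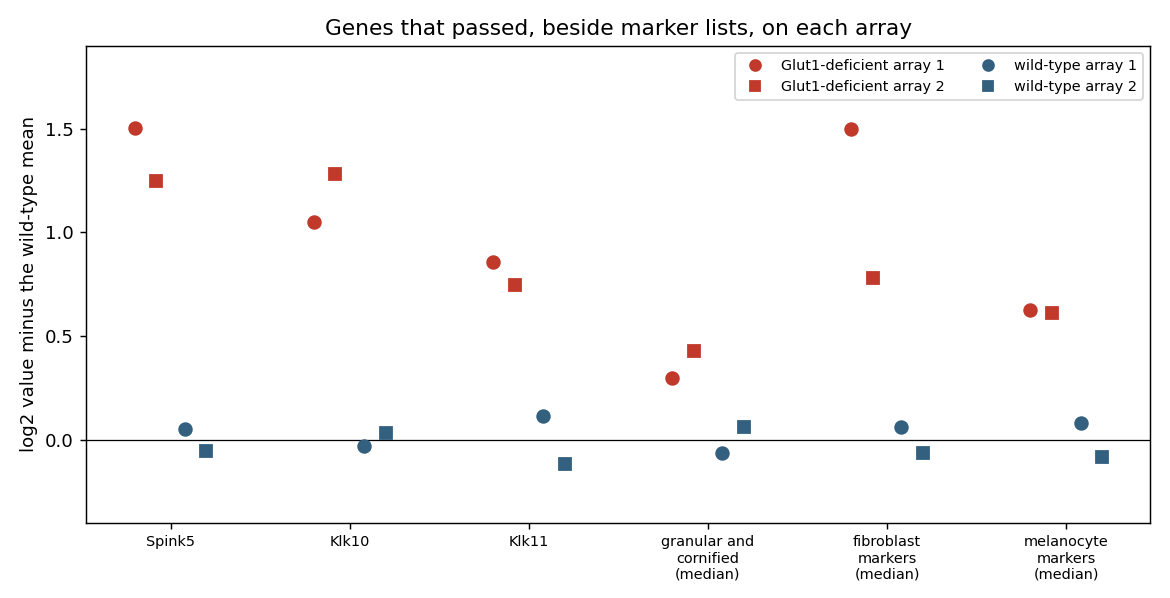
Log2 value minus the wild-type mean (vertical axis) of Spink5, Klk10 and Klk11, and the median of the same over 3 gene lists, on each array; red marks Glut1-deficient arrays and blue wild-type arrays, circles array 1 and squares array 2. The fibroblast median differs between the Glut1-deficient arrays (1.50 and 0.78) more than Spink5 (1.50 and 1.25), Klk10 (1.05 and 1.28) or Klk11 (0.86 and 0.75).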

How the data were processed

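RNA from pooled plates was hybridised to MoGene 2.0 arrays, 2 per genotype. The deposited values are log2 intensities per transcript cluster, which the authors computed by RMA in Affymetrix Expression Console, as the submitters' processing notes list. Versions and the genome build are not given there. The table held 41345 rows, of which 23521 had 1 gene symbol in the platform annotation, 1814 several and 16010 none. Symbols were checked by gene identifier against RefSeq (GRCm38.p6) for 23328 rows, and 0 changed. The brightest row stood for each gene, which left 22180.

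Genotypes were compared in R 4.3.3 by limma 3.58.1 (eBayes after lmFit, 2 residual degrees of freedom, prior 2.95), two-sided, Glut1-deficient minus wild type, adjusted over all genes by Benjamini-Hochberg, with 0.05 as threshold. Intervals are 95%. The fit was also run on simulated data with known changes, with independent errors drawn from its own variance prior. Such data cannot address what the pools may share in culture or handling. Members and gene lists were chosen with earlier results of these data known. Named were all members, the 4 genes of each pathway list with the smallest p, the 3 brightest markers of each cell type, Slc2a1 and the 3 genes most like the member with the smallest p (Euclidean distance of the 4 deviations from the gene's mean; predicted genes, small RNAs and olfactory receptors skipped). Further genes of the lists were named after their values were seen. Alternatives covered the variance prior, normalization, a filter on dim genes, the choice of rows, each array left out, a replicate block and the threshold. Replicate arrays were not duplicates (r = 0.9898 and 0.9923 over all rows, against 0.9839 to 0.9875 between genotypes).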

Additional observations from a re-analysis of the deposited data

How the results depend on the processing

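The log2 fold changes of the 10 genes kept their direction under every alternative run, except that Klk6 reached 0.022 (range -0.18 to 0.022) and Klk13 -0.0016 (range -0.0016 to 0.27) with 1 array left out. The rises of Spink5, Klk10 and Klk11 passed in limma under 3 other normalizations, the restriction to brighter genes, the test of each row on its own, averaged rows, both intensity trends and the looser threshold. With 1 array left out the counts passing were 0 to 0 for the 10 genes, for each list and for all genes (limma, 2948 to 4627 genes at unadjusted p under 0.05). With the replicate number as a block, the counts were 0 for the 10 genes (limma, 6 at unadjusted p under 0.05) and for each list, and 37 of all genes; Spink5 was at adjusted p = 0.0531, Klk10 at 0.0563 and Klk11 at 0.0791. Same-numbered arrays share only a number (correlation of deviations -0.025), and the block takes 1 of 2 residual degrees of freedom. With an intensity trend, and the same with robust estimation, the counts were 5 for the 10 genes, 1 for other kallikreins, 2 for other inhibitors, 7 for other proteases (3 rose, 4 fell), 12 for granular and cornified genes, and 2671 and 2729 for all genes. With genes above the median level they were 1 for other kallikreins, 7 for other proteases, 1 for substrates and 2327 for all genes. Klk5, Klk13 and Klk14 were not tested there. At an adjusted p under 0.1 they were 1 for other kallikreins, 2 for other inhibitors, 7 for other proteases, 10 for granular and cornified genes and 1855 for all genes. Other proteases also counted 3 under median centring, 2 under quantile normalization, 3 under cyclic loess and 3 with the mean of rows, against 1. The causes were not tested. No depth applies to intensities, and signal over background could not be judged.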
